A study of Drosophila melanogaster with 4 samples.

Results

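The regions described here are the Smc3 clusters on scaffold 3LHet, an assembled stretch of the pericentric heterochromatin of the left arm of chromosome 3 in Drosophila melanogaster. The scaffold is 2555491 bp long in FlyBase release 5, the build of the files, and all coordinates are on that build. A cluster is a region of significant enrichment that the authors called from chromatin immunoprecipitation and sequencing (ChIP-seq). Every cluster whose sequence name is 3LHet was taken, whatever its width or score. This gave 287 of the 7858 clusters of ChIP replicate 1, 225 of the 6505 clusters of ChIP replicate 2 and 196 of the 15781 clusters of the authors' replicate-set list, a list made for both replicates.

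Cohesin is a protein ring that tethers sister chromatids from replication until anaphase, and Smc3 is one of its long coiled-coil ATPase subunits. Cohesin also takes part in chromosome looping and gene regulation, and the ring of Smc1 and Smc3 is closed by a kleisin subunit. Pericentric heterochromatin is the repeat-rich, HP1-bound sequence around centromeres, where cohesion is kept until sister chromatids separate. In fission yeast the HP1 homolog Swi6 is known to bring cohesin to this chromatin.

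All samples came from wild-type larvae of instar 3 of the strain Oregon-R (Oregon-R-modENCODE). Crosslinked chromatin of homogenized larval tissues was precipitated with the rabbit polyclonal antibody Smc3 Q2580, so cell types were mixed in each sample. There were 2 Smc3 ChIP samples and 2 Input samples, and each ChIP sample has its own cluster list, while no list of an Input sample was analysed here. The description of ChIP replicate 2 names input DNA alone, and its place in the ChIP group rests on its title and source name. Most values are therefore given for each replicate separately, while some are given only as means over both replicates. How deeply each sample was sequenced is unknown here. Nothing in the labels tells whether larvae were collected anew for each replicate, and the replicate spread may thus be technical. The treatment of reads that match several places, which matters in repeated sequence, is not given in the sources used here.

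Smc3 clusters covered most of 3LHet in both replicates. Replicate 1 placed 61.7% of the scaffold's bases inside clusters and replicate 2 placed 70.9%, a mean of 66.3% ± 6.51 (SD, n = 2). The covered length was 1.58 Mb in replicate 1 and 1.81 Mb in replicate 2. Over all sequences that hold clusters, cover was 15.7% in replicate 1 and 14.7% in replicate 2, so the replicates stood in the reverse order there. The scaffold makes up 1.83% of the 13 sequences that hold clusters, yet it held 7.18% of all bases inside clusters in replicate 1 and 8.79% in replicate 2. In each of the 3 lists it ranked 2 by cover among these sequences. Clusters began at base 13 in replicate 1 and at base 22 in replicate 2, and the last ended at 2552369 and 2552401, so that both lists ran from end to end of the scaffold.

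High cover extended over nearly the whole scaffold. In fixed windows of 100 kb, of which there are 26 with a last window of 55491 bp, cover exceeded 50% in 21 windows in replicate 1 and in 22 in replicate 2. These are 80.8% and 84.6% of the windows, against 6.98% and 9.75% of the windows of all sequences in the same lists. The 21 windows of replicate 1 were all over 50% in replicate 2 as well. Window cover ran from 24.0% to 87.9% with a median of 65.6% in replicate 1, and from 29.5% to 90.1% with a median of 74.7% in replicate 2. Replicate 2 was the higher of the replicates in 25 of 26 windows, by a median of 7.57 percentage points. Across the 26 windows the covers of the replicates had a Pearson correlation of 0.913 and a Spearman correlation of 0.872, as a description, since the windows share a library and a scaffold.

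**Figure D1:**
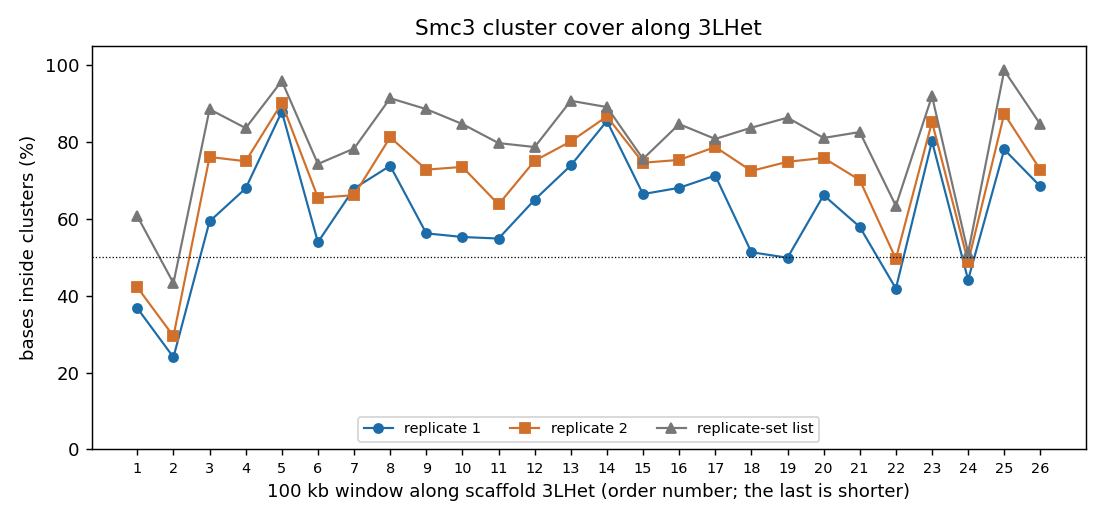
Percent of bases inside Smc3 clusters in each 100 kb window of 3LHet, in order along the scaffold, for replicate 1, replicate 2 and the replicate-set list. The dotted line marks 50%. The replicates dip in the same windows (1, 2, 22 and 24), and replicate 2 lies above replicate 1 in 25 of 26 windows.

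The windows with the highest mean cover were spread along the scaffold. The window from 400001 to 500000 was covered to 87.9% in replicate 1 and 90.1% in replicate 2. The window from 1300001 to 1400000 was covered to 85.5% and 86.6%. The window from 2200001 to 2300000 was covered to 80.2% and 85.2%. In the window from 400001 to 500000 and the window from 1300001 to 1400000 the replicates differed by 2.23 and 1.18 percentage points, less than in most others.

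The lowest cover was at the start of the scaffold. The window from 100001 to 200000 was covered to 24.0% in replicate 1 and 29.5% in replicate 2. The window from 1 to 100000 was covered to 36.8% and 42.2%. The window from 2100001 to 2200000, with 41.9% and 49.6%, was the remaining member of the lowest set. Together with the window from 2300001 to 2400000, at 44.1% and 48.8%, these were the only windows at or under 50% in both replicates.

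Each of these 4 windows contained long stretches that neither replicate called. Stretches of at least 10 kb outside the clusters of both replicates took up 50.4% of the window from 100001 to 200000 and 47.5% of the window from 2300001 to 2400000. They took up 44.2% of the window from 1 to 100000 and 28.8% of the window from 2100001 to 2200000. On the other bases of the window from 2300001 to 2400000, cover was 84.1% in replicate 1 and 92.9% in replicate 2. A window between the extremes, from 1400001 to 1500000, held 24.7% of such stretches, and its other bases were covered to 88.2% in replicate 1 and 99.1% in replicate 2. In the window from 100001 to 200000, cover of the other bases was 48.3% and 59.4%. The first window of the scaffold had 65.9% and 75.6% of its other bases covered. The corresponding values were 58.8% and 69.6% between 2100001 and 2200000. In these last 3 windows cover of the other bases was lower in both replicates than the 68.3% and 78.5% found on the whole scaffold without its long uncalled stretches. This was not particular to them. It also held in windows with no such stretch, among them those from 800001 to 900000 (56.2% and 72.8%) and from 2000001 to 2100000 (57.9% and 70.1%). Others, such as the window from 400001 to 500000 (87.9% and 90.1%), lay above both values.

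The replicates differed most in windows that replicate 1 covered to about the threshold and replicate 2 covered well. In the window from 1800001 to 1900000 cover was 49.9% in replicate 1 and 74.9% in replicate 2, a difference of 25.0 percentage points. Cover was 51.3% and 72.5% in the neighbouring window, from 1700001 to 1800000. It was 55.3% and 73.5% between 900001 and 1000000. Only the window from 600001 to 700000 was covered more in replicate 1, at 67.9% against 66.2%.

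Clusters on 3LHet were wide, and wider in replicate 2. The median width was 3555 bp in replicate 1 and 4994 bp in replicate 2, a mean of 4274.5 bp ± 1018 (SD, n = 2), while over all sequences the medians were 2014 bp and 1811 bp. Widths ran from 1302 bp to 24.4 kb in replicate 1 and from 1303 bp to 68.3 kb in replicate 2. Clusters of at least 10 kb numbered 46 in replicate 1 and 61 in replicate 2, or 16.0% and 27.1% of the members, against 2.77% and 4.98% of all clusters of those lists. In the 2 Mb of arm 3L nearest the centromere these shares were 14.8% in replicate 1 and 31.5% in replicate 2. They were 11.8% and 18.8% on the related scaffold 2RHet, and 2.42% and 13.6% on scaffold 3RHet. On 3LHet clusters of at least 10 kb held 44.2% of the bases inside clusters in replicate 1 and 63.2% in replicate 2. Clusters of at least 20 kb numbered 5 in replicate 1 and 20 in replicate 2.

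Gaps between clusters were mostly short, and their lengths were closer between the replicates than the widths were. The median gap was 1458.5 bp in replicate 1 and 1611 bp in replicate 2, a mean of 1534.75 bp ± 108 (SD, n = 2). Gaps under 1 kb made up 39.2% of the 286 gaps of replicate 1 and 37.9% of the 224 of replicate 2. When clusters separated by less than 1 kb were joined, the mean number of clusters fell from 256 to 157.5 and the mean of the median widths became 7621 bp. Long gaps were few, with 21 of at least 10 kb in replicate 1 and 13 in replicate 2, and they held 42.8% and 36.3% of all gap bases.

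**Figure D2:**
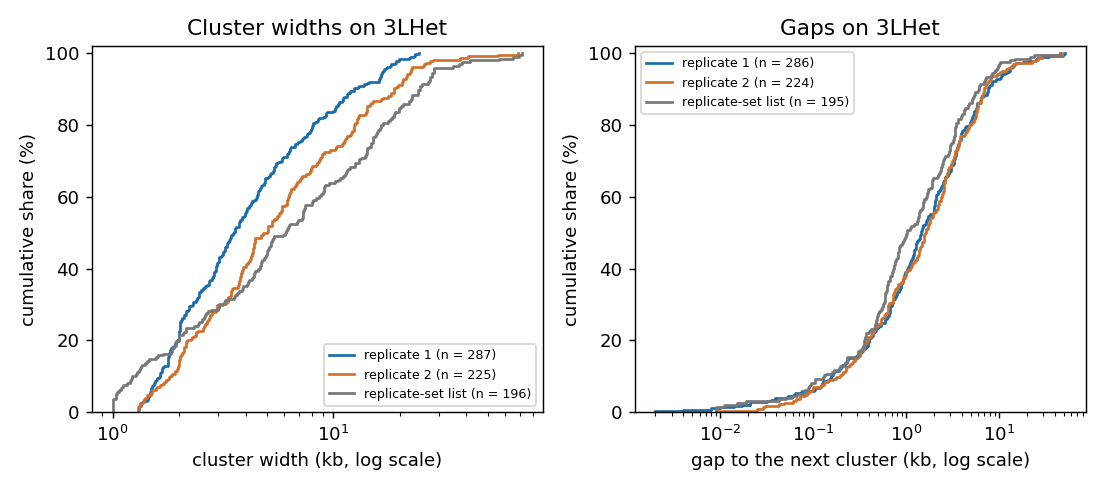
Cumulative share of clusters by width (left, kb on a log scale) and of gaps by length (right, kb on a log scale) on 3LHet, for each list. The width curve of replicate 2 lies to the right of that of replicate 1 (medians 4994 bp and 3555 bp), while the gap curves of the replicates nearly coincide (medians 1611 bp and 1458.5 bp).

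The longest stretches that neither replicate called were long relative to the median gap, and 4 of the 5 longest lay in low windows. The longest ran from 2327958 to 2375481 and was 47.5 kb long. In the replicate-set list 2.58% of it lay inside clusters. The next ran from 2160461 to 2189222 (28.8 kb), of which the replicate-set list covered 22.5%. Close to each other at the start of the scaffold were the stretches from 114064 to 138235 (24.2 kb) and from 139605 to 165794 (26.2 kb), which the replicate-set list covered to 12.4% and 15.1%. In replicate 1 these were 1 gap of 51.7 kb, its longest, and in replicate 2 a cluster of 1369 bp with a score of 2.48 stood between them. The remaining stretch of this set ran from 1456329 to 1481022 (24.7 kb), covered to 2.50% in the replicate-set list. There were 12 such stretches of at least 10 kb, which took up 248 kb or 9.71% of the scaffold. Whether reads could be placed there was not tested.

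Each cluster carries the authors' score, a log2 value, and members ranked high within their own lists. Of the 287 members in replicate 1, 279 or 97.2% had a score above the median of the whole list, and of the 225 in replicate 2, 221 or 98.2% did. The mean of these shares was 97.7% ± 0.714 (SD, n = 2), and on the related scaffolds it was close to that, at 96.5% ± 1.39 on 3RHet and 95.7% ± 1.01 on 2RHet. In the 2 Mb of arm 3L nearest the centromere it was 88.1% ± 1.31. The median score was 1.18 in replicate 1, where the list median was 0.78, and 1.43 in replicate 2, where the list median was also 0.78. In replicate 1, 73 members or 25.4% were among the highest 10% of the list by score, and in replicate 2, 65 members or 28.9% were. These shares were 20.2% and 23.1% on 3RHet, and 21.8% and 20.9% on 2RHet. In the same 2 Mb of 3L they were 15.3% and 10.3%. Scores ran from 0.61 to 2.82 in replicate 1 and from 0.56 to 4.22 in replicate 2.

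Scores of wide domains lay in a narrow range and those of narrow clusters in a broad range. In replicate 1 the 46 clusters of at least 10 kb scored between 1.00 and 1.63 (median 1.22, SD over clusters 0.13), whereas the 59 clusters under 2 kb scored between 0.61 and 2.82 (median 1.14, SD 0.49). In replicate 2 the 61 clusters of at least 10 kb scored between 1.04 and 1.95 (median 1.48, SD 0.16), and the 30 clusters under 2 kb between 0.56 and 4.22 (median 1.25, SD 1.03). The same held in the replicate-set list, where the SD was 0.17 over 71 clusters of at least 10 kb and 0.90 over 40 clusters under 2 kb. No cluster with a score of 2 or more was wider than 3.72 kb in replicate 1 (11 clusters) or 7.54 kb in replicate 2 (23 clusters). A narrow cluster holds fewer reads than a wide one at the same enrichment, and the depth behind each score is unknown here.

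Width and score had little relation within 3LHet in the replicates. Across members, the Spearman correlation of width and score was 0.09 in replicate 1 (n = 287) and 0.05 in replicate 2 (n = 225), given as a description, since clusters of a list share a library. In the replicate-set list it was negative, at -0.17 (n = 196), and the Pearson correlation of score with the logarithm of width was -0.31. Over the clusters of the 5 long chromosome arms the Spearman correlation was 0.62 in replicate 1 (n = 6076) and 0.39 in replicate 2 (n = 4713). In the replicate-set list it was weaker on these arms, at 0.17 (n = 13553). In the replicates it was also low on scaffold 3RHet, at 0.16 and 0.09, and on 2RHet, at 0.09 and 0.22. The replicate-set values there were -0.04 and -0.06. In the 2 Mb of arm 3L nearest the centromere it was 0.42 and 0.50 in the replicates and 0.52 in the replicate-set list. No test was made of these differences.

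**Figure D3:**
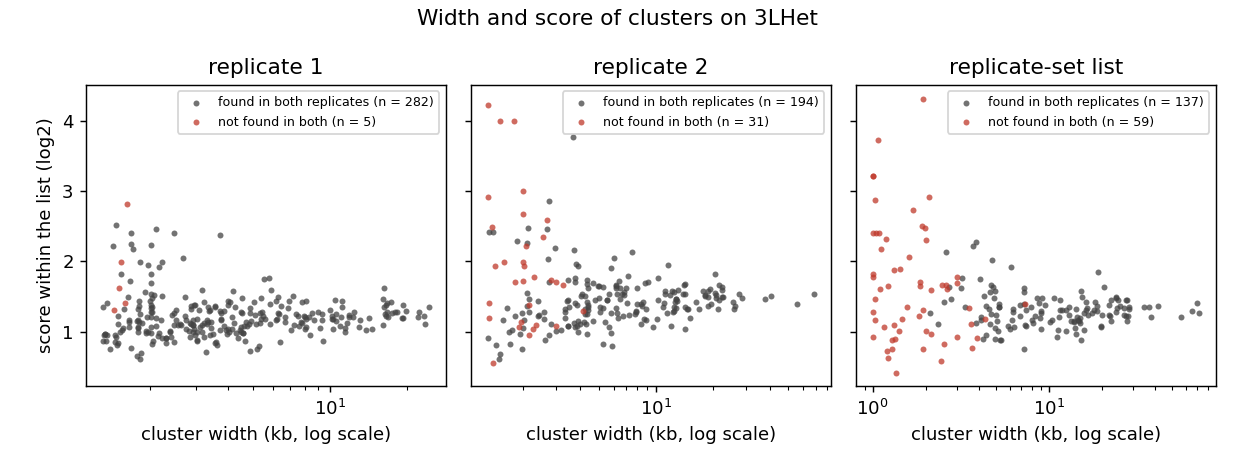
Width (kb, log scale) against score (log2, within each list) for the clusters of 3LHet in replicate 1, replicate 2 and the replicate-set list. Dark points are clusters found in both replicates and red points are the others. No cluster with a score of 2 or more is wider than 7.54 kb, and most of the highest points are red except in replicate 1.

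At the level of single bases, the clusters of replicate 1 lay almost wholly inside those of replicate 2. Of the bases of 3LHet, 58.9% (1505 kb) were inside clusters of both replicates, 2.76% (70.5 kb) of replicate 1 alone, 12.0% (306 kb) of replicate 2 alone and 26.4% (674 kb) of neither. Thus 95.5% of the bases of replicate 1 were also called in replicate 2, and 83.1% of those of replicate 2 were called in replicate 1. The bases called in both were 80.0% of the bases called in either (the Jaccard index). If the covers of the replicates were independent, their product would place 43.7% of bases inside both, so the observed share was 1.35 times that. Cohen's kappa, which sets the share of bases with the same call in both replicates (85.3%) against the share that the covers alone give, was 0.67. Kappa varied along the scaffold from 0.42 in the window from 1800001 to 1900000 to 0.87 in the window from 2300001 to 2400000.

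The disagreements were short, and most of their bases belonged to clusters found in both replicates. Stretches called in replicate 1 alone had a median length of 306 bp and none exceeded 2325 bp (138 stretches). Stretches called in replicate 2 alone had a median length of 471 bp and reached 4220 bp (373 stretches). Stretches common to both had a median of 3176 bp and reached 24.4 kb (312 stretches). When clusters were matched 1 to 1 by largest overlap, 183 pairs resulted, and the cluster of replicate 2 was the wider in 139 of them. Its start lay further out in 139 pairs, by a median over all pairs of 385 bp, and its end lay further out in 124 pairs, by a median of 214 bp. Of the 366 matched edges, 66 or 18.0% lay within 100 bp of each other, 144 were more than 1 kb apart, and 1 fell on the same base.

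**Figure D4:**
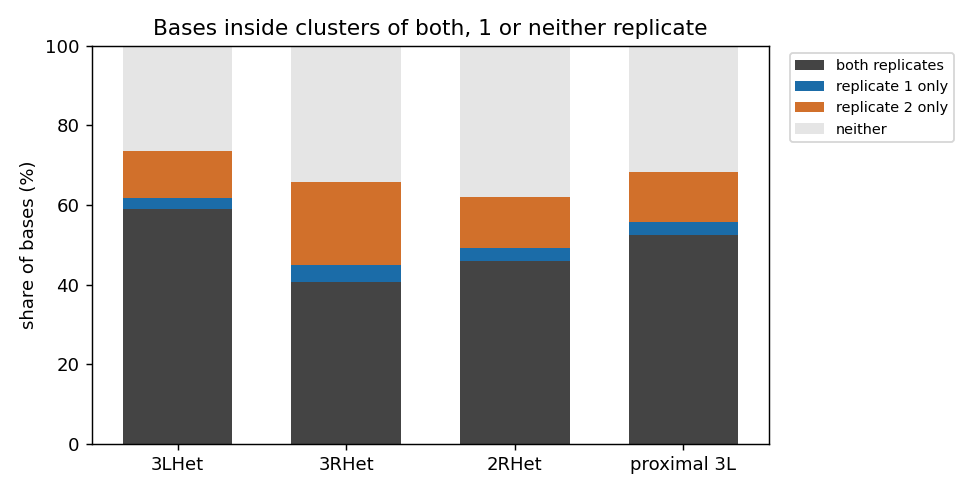
Share of bases (%) inside clusters of both replicates, of 1 replicate only and of neither, on 3LHet, on 3RHet, on 2RHet and in the 2 Mb of 3L nearest the centromere (proximal 3L). On 3LHet 58.9% of bases were in both and 12.0% in replicate 2 only, and on 3RHet 40.8% and 20.9%.

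Counted as clusters, sharing was near complete in one direction. Of the 287 clusters of replicate 1, 282 or 98.3% (95% exact Clopper-Pearson interval 96.0 to 99.4) shared at least 1 bp with a cluster of replicate 2. Over all sequences this share was 51.8%. Of the 225 clusters of replicate 2, 194 or 86.2% (81.0 to 90.4) shared at least 1 bp with a cluster of replicate 1, against 54.6% over all sequences. These intervals treat clusters as independent, although clusters of a list share a library and several may lie in 1 domain. They cover counting error only, and a 1 bp rule is easily met where most bases are covered. When the overlap had to reach 50% of each cluster of a pair, the shares were 44.6% and 56.9%.

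Many domains were whole in replicate 2 and split in replicate 1. How far this accounts for the lower shares under the stricter rule was not tested. Of the shared clusters of replicate 2, 68 touched at least 2 clusters of replicate 1, and these had a median width of 13.0 kb. By contrast, 26 clusters of replicate 1 touched at least 2 of replicate 2. A total of 169 clusters of replicate 1, or 58.9%, lay wholly inside a cluster of replicate 2, and 20 clusters of replicate 2, or 8.89%, lay wholly inside a cluster of replicate 1. The most divided domain, chosen after its values were seen, was the cluster of replicate 2 from 1400615 to 1456328 (55.7 kb, score 1.39). Replicate 1 held 11 clusters over it, with scores from 0.86 to 1.34 and gaps of 4 bp to 2184 bp between them, which covered 87.6% of its bases. In the replicate-set list this was 1 cluster of 56.3 kb with a score of 1.21.

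The widest stretches inside 1 cluster of each replicate were domains of more than 20 kb with moderate scores. The widest ran from 1188173 to 1212538 (24.4 kb), which is the whole of the widest cluster of replicate 1, with scores of 1.35 in replicate 1 and 1.53 in replicate 2. The next ran from 1622424 to 1645686 (23.3 kb, scores 1.22 and 1.54), within the widest cluster of replicate 2, which reached from 1589652 to 1657954 and held 4 clusters of replicate 1. At the very start of the scaffold the replicates shared a domain from 22 to 22207 (22.2 kb, scores 1.28 and 1.64), whose ends lay 214 bp apart. The others ran from 1305028 to 1326542 (21.5 kb, scores 1.21 and 1.50) and from 475312 to 496531 (21.2 kb, scores 1.11 and 1.33). Within the members of each list these scores ranked from 70 to 180 of 287 in replicate 1 and from 58 to 145 of 225 in replicate 2, so none of these wide domains was among the strongest.

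The strongest sites called in both replicates were taken as the 10 matched stretches of at least 500 bp with the highest lower score of the pair. All but 3 of them were under 4 kb. Scores of each replicate are values within its own list, and this ranking sets them side by side. Over all 183 matched pairs replicate 2 had the higher score in 147, and the median difference, replicate 2 minus replicate 1, was 0.23. The lower score of a pair was thus mostly that of replicate 1.

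The highest by this measure was the stretch from 306735 to 307895 (1161 bp), with a score of 2.52 in replicate 1, rank 2 of its 287 members, and 2.41 in replicate 2, rank 13 of 225. In the replicate-set list it was part of a wider cluster, from 302532 to 311634, that scored 1.30. The stretch from 1709823 to 1711255 (1433 bp) scored 2.21 and 3.77, and the latter was the highest score in replicate 2 among clusters found in both replicates. Next to it, the stretch from 1705803 to 1707497 (1695 bp) scored 2.17 and 2.03. The clusters behind these stretches are neighbours in each replicate, with no other cluster between them.

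The stretch from 1395567 to 1399262 was the one of the 10 on which both cluster edges lay within 100 bp in the replicates. Over all 183 pairs this held for 5. It was 3696 bp long, the starts lay 22 bp apart and the ends 23 bp apart, and the scores were 2.37 and 2.17. Its replicate-set cluster, from 1395488 to 1399368, scored 2.28, the highest score among replicate-set clusters of 3LHet found in both replicates. It is the neighbour of the divided domain that starts at 1400615.

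The stretch from 443562 to 449368 (5.81 kb, scores 1.76 and 2.05) had its end on the same base in both replicates, at 449368. The stretch from 49432 to 50826 (1395 bp) scored 2.05 and 2.41 and ended 1 bp apart. The stretch from 572889 to 574523 (1635 bp) scored 2.46 and 1.96, and its replicate-set cluster scored 2.03. Other sites ran from 513036 to 514998 (1963 bp, scores 1.95 and 2.48) and from 2444837 to 2450351 (5.52 kb, scores 1.75 and 2.14). The last of the 10, from 599866 to 616126, was a domain of 16.3 kb with scores of 1.63 and 1.83. Its lower score was 1.63, and that of the next stretch, from 2439567 to 2441467, just outside the set, was 1.57. A pair with scores of 2.41 and 2.29 was left out because its clusters had only 205 bp in common, from 53326 to 53530.

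**Figure D5:**
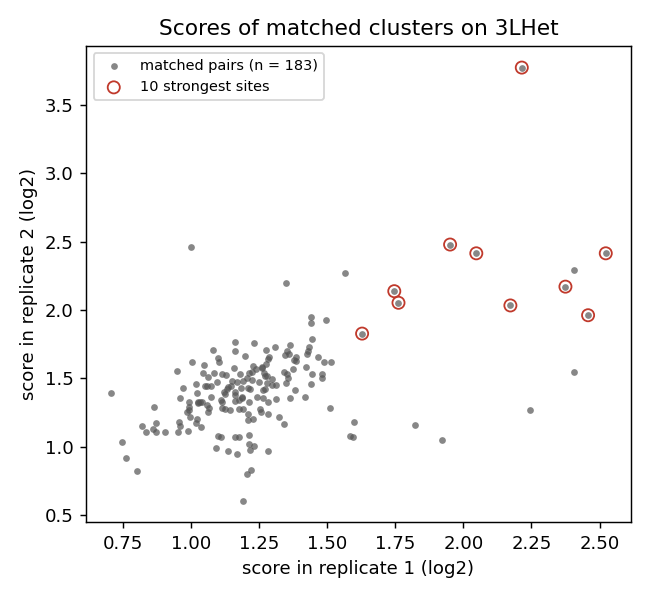
Score of replicate 1 against score of replicate 2 (both log2, each within its own list) for the 183 clusters of 3LHet matched 1 to 1. Circles mark the 10 strongest sites. The bulk of pairs lies between about 1 and 2 on both axes, and the circled sites have lower scores of the pair from 1.63 upwards.

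Scores of matched clusters were related between the replicates, with a wide scatter. Over the 183 pairs the Spearman correlation was 0.48 and the Pearson correlation 0.57, given as descriptions, since the pairs share both libraries. Over all 312 overlapping pairs, in which a split domain enters several times, the Spearman correlation was 0.32.

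The highest scores of replicate 2, in contrast, were mostly at sites that replicate 1 did not call. Among the 10 highest scores of replicate 2 on 3LHet, 2 belonged to clusters that replicate 1 also held, and among the 10 highest of replicate 1, 9 belonged to clusters that replicate 2 also held. In replicate 2 the highest was the cluster from 297621 to 298925 (1305 bp, score 4.22), which lay 498 bp from the nearest cluster of replicate 1. The clusters from 110152 to 111657 and from 1682258 to 1684042 both scored 4.00, and the latter lay 5733 bp from any cluster of replicate 1. The 31 clusters of replicate 2 with no counterpart were narrow (median width 2001 bp) and scored 1.74 in the median, whereas the 194 shared ones had medians of 5852 bp and 1.42. The unshared clusters held 3.57% of the bases of replicate 2.

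Clusters of replicate 1 without a counterpart were just 5, and all were narrow. The highest ran from 112448 to 114063 (1616 bp) and with 2.82 had the top score of replicate 1 on the scaffold. The nearest cluster of replicate 2, 790 bp away, was the one from 110152 to 111657 that scored 4.00. One replicate-set cluster, from 111622 to 114238 with a score of 2.13, touched both of them, and it was the only replicate-set cluster of 3LHet that met both replicates without any base that the replicates had in common. The next were the clusters from 737214 to 738752 (score 1.99, 130 bp from replicate 2) and from 2013690 to 2015194 (score 1.63, 313 bp from replicate 2). The largest width among the 5 was 1616 bp, and together they held 0.489% of the bases of replicate 1.

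The replicate-set list joined the domains further. It covered 80.4% of 3LHet with 196 clusters of median width 6066 bp, against 287 and 225 clusters in the replicates. Its widest cluster ran from 368976 to 440656 (71.7 kb, score 1.26). All 287 clusters of replicate 1 and all 225 of replicate 2 were touched by it, and it contained 99.6% of the bases called in either replicate. Of its own bases, 8.77% (180 kb) lay outside the clusters of both.

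Of the 196 replicate-set clusters, 137 or 69.9% (95% exact Clopper-Pearson interval 63.0 to 76.2) shared at least 1 bp with clusters of both replicates, against 19.5% over all sequences. This interval, too, treats clusters as independent, although they share the same libraries. These 137 held 94.5% of the bases of the list on 3LHet and had a median width of 10.7 kb and a median score of 1.30. Another 19 were found in replicate 2 only and 1 in replicate 1 only. The 39 found in neither were narrow, with a median width of 1227 bp and none over 4353 bp, and their scores ran from 0.59 to 3.73 with a median of 1.65. On 3LHet the narrowest replicate-set cluster was 1001 bp wide, against 1302 bp in replicate 1 and 1303 bp in replicate 2. The median width of the 39 thus lay below the narrowest cluster of either replicate. How far this difference in least width accounts for the 39 was not tested. None of the 10 highest scores of the list on 3LHet was found in both replicates. Of these 10 clusters, 8 were found in neither replicate and 2 in replicate 2 only, and none was wider than 2079 bp. The highest of them, from 1682236 to 1684168, scored 4.32 and matched the cluster of replicate 2 that scored 4.00.

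Cover on 3LHet was higher than on the other 2 scaffolds compared, in each replicate. It exceeded that of 3RHet, at 53.3% ± 12.0 (SD, n = 2), by 16.9 percentage points in replicate 1 and 9.16 in replicate 2, a mean of 13.0. It exceeded that of 2RHet, at 53.9% ± 6.87, by 12.6 and 12.1 percentage points, a mean of 12.3. For each comparison the exact sign-flip permutation test over the 2 replicates gave p = 0.5, two-sided, which is the smallest p that 2 replicates allow, so these differences cannot pass a threshold of 0.05. In the replicate-set list the difference from 3RHet was 6.50 percentage points. Long gaps were not alike on these scaffolds. Gaps of at least 10 kb held 42.8% and 36.3% of gap bases on 3LHet in replicates 1 and 2. These shares were 53.2% and 43.3% on 3RHet, and 57.8% and 58.5% on 2RHet. The longest gap of replicate 1 was 51731 bp on 3LHet, 84176 bp on 3RHet and 121425 bp on 2RHet. How far long gaps account for the differences in cover was not tested.

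Against the adjoining end of the same arm, the direction depended on the length taken. Cover of 3LHet was above that of the last 2 Mb of 3L by 5.87 percentage points in replicate 1 and 5.77 in replicate 2 (exact sign-flip permutation p = 0.5, two-sided, n = 2). The last 1 Mb of 3L was covered to 69.0% in replicate 1 and 79.0% in replicate 2, and the mean difference, 3LHet minus 3L, was then -7.74 percentage points. In the 1 Mb of 3L before it, cover was lower, at 42.6% in replicate 1 and 51.1% in replicate 2. With clusters of a score of at least 1, the mean difference from the last 2 Mb was 9.83 percentage points. The median widths of 3LHet and of the last 2 Mb of 3L were close, at 3555 bp and 3486 bp in replicate 1 and 4994 bp and 5049.5 bp in replicate 2. The difference in width went in opposite directions in the replicates (mean 6.75 bp, exact sign-flip permutation p = 1). Median scores on 3LHet differed little from those of the other scaffolds, lying above 3RHet by 0.04 in replicate 1 and 0.06 in replicate 2 and above 2RHet by 0.01 and 0.06 (exact sign-flip permutation p = 0.5 for each). They were above those of the last 2 Mb of 3L by 0.11 in replicate 1 and 0.12 in replicate 2 (exact sign-flip permutation p = 0.5).

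Agreement of the replicates at base level on 3LHet was close to that on 2RHet and at the end of 3L. Kappa was 0.67 on 3LHet, 0.68 on 2RHet, 0.67 in the last 2 Mb of 3L and 0.51 on 3RHet. On 3RHet 20.9% of bases were called in replicate 2 alone, against 12.0% on 3LHet. Each of these is a single value for a pair of lists, so no test of the difference was possible.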

How the data were processed

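Smc3 ChIP-seq of 2 ChIP samples and 2 Input samples was made from larvae. Samples were grouped by their titles. The submitters' processing notes name Bowtie 0.12.7, and per the file headers coordinates are on FlyBase release 5. Which caller and thresholds were used, and how replicates were combined, is not given in the sources used here. The deposited scores were taken to be log2 values. For this, 2 to the power of the difference between a score and the most repeated score of its list was a ratio of whole numbers, with denominators up to 3000 and a tolerance of 1e-11, for 99.9% (replicate 1), 98.2% (replicate 2) and 99.6% (replicate set) of clusters. With base e or 10 at most 1.89% were. What the ratio compares is not stated, and scores were mostly compared within a list. Scores were set against each other between the replicates in the score correlations and in the ranking of the strongest sites.

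Coordinates were kept 1-based as deposited. Rows marked as depleted, 2 in the replicate-set list and 0 on 3LHet, were left out. Cover counts each base of a region once. Matching took the largest overlap first and used each cluster once. The text names the 10 strongest and 5 widest common stretches of at least 500 bp, the 5 longest stretches outside both replicates, the 3 highest, 3 lowest and 3 most different windows, and the 3 highest clusters of each replicate found in that replicate alone. Members, rules and lists were chosen with earlier results of these data known. The sequence and gene annotation of release 5 were not used here. The only tests were exact sign-flip permutations over 2 replicates, and no other p-value is given. The interval functions were tested on simulated lists with known answers. Computations used Python 3.11.15, numpy 2.4.6, scipy 1.17.1 and matplotlib 3.10.9. Alternatives changed the score, width and gap rules, the overlap, the window size, the extent of 3L, the matching and the ranking, or left out a replicate.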

Additional observations from a re-analysis of the deposited data

How the results depend on the processing

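No paired analysis was possible because only lists of the ChIP samples were analysed here, so no groups of samples with shared replicate numbers were compared. The comparisons between sequences were taken within each replicate. The alternatives that leave out runs of N were not run, since no genome of the build was used. With the replicate-set list in place of the replicates, cover of 3LHet was 80.4%. With the last 1 Mb of 3L as its proximal part, the difference in cover between 3LHet and 3L was -7.74 percentage points, while the other 6 alternatives kept it positive, up to 9.83 with clusters of a score of at least 1. The differences from 3RHet and 2RHet stayed positive under all 6 alternatives run for each, from 6.50 to 16.9 and from 12.1 to 12.9 percentage points. Joining gaps under 1 kb gave 157.5 clusters, a median width of 7621 bp, a median gap of 3147.75 bp, a Jaccard index of 81.6% and a kappa of 0.69. Keeping clusters with a score of at least 1 gave a median gap of 2354.5 bp, a Jaccard index of 70.2%, a kappa of 0.55 and 78.8% of replicate 2 clusters shared. An overlap of 50% of each cluster gave 44.6% and 56.9% shared for replicates 1 and 2, and 40.3% of replicate-set clusters found in both. The score correlation was 0.32 over every overlapping pair, 0.49 over 1213 bins of 1 kb and 0.57 as Pearson's. Ranking by replicate-set score kept 6 of the 10 strongest sites. Leaving out a replicate gives the other's values, which stand in the text, and leaves no value for agreement. Of the 70 alternatives, 17 moved a result and 1 reversed it. The other 52 kept the sign of a difference in cover, or kept a count within 1.5 times and other values within their spread or interval. The Jaccard index, kappa and the score correlation had no spread or interval, and any change in them counted as moved. Some of these 52 could not have moved. No replicate cluster on 3LHet was narrower than 1302 bp, so a least width of 1 kb removed none there. Where the spread was the SD of the 2 replicates, leaving out 1 could not move a value. Each replicate always lies within that SD of the mean. The reversed difference left out the 1 Mb of 3L before the last, where cover was lower. Why cover differed between these parts of 3L was not tested. Depth is unknown, so it cannot be said how far narrow clusters with high scores rest on few reads.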
